A study of Mus musculus with 4 samples.

Results

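Homeostatic astrocyte genes are the transporters, channels, junction proteins, enzymes and secreted factors by which resting astrocytes keep the brain's extracellular fluid in balance. The 35 genes described here were chosen by name, from general knowledge of astrocytes and with earlier results of these arrays known. Each gene is represented by the probesets that the platform annotation assigns to that gene alone. They had 78 of the 45101 probesets on the array, and all 35 had at least 1. A probeset was tested if its intensity reached 100, the submitters' own minimum, in at least 2 of the 4 arrays, which kept 62 of the 78 and 34 of the 35 genes. Of the remaining 16 probesets, 14 lay under 100 in every array.

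The arrays came from male DBA/2J mice, an inbred strain, 8 to 10 weeks old per the labels. The fluoxetine group drank water with fluoxetine-HCl, a serotonin reuptake inhibitor used as an antidepressant, at 18 mg/kg per day for 21 days. The control group drank untreated water, with a dose of 0. Whole hippocampi of 12 mice per group were combined into 2 RNA pools of 6 mice, with 1 Affymetrix Mouse Genome array per pool, so each value below is an average over mice and over all cell types of the tissue. The comparison asks how hippocampal transcript levels differ after prolonged drug intake. Because the RNA is from whole tissue, a change in the number of astrocytes and a change in the RNA of each astrocyte cannot be told apart.

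Astrocytes take up synaptic glutamate through Slc1a2 and Slc1a3, turn it into glutamine with Glul, and pass water, potassium, bicarbonate and urea through channels and transporters gathered at their endfeet on blood vessels. They are joined into a network by the connexins Gja1 and Gjb6. In the hippocampus this system is known for clearing transmitter during neuronal activity, and for loosening or strengthening parts of itself when astrocytes become reactive. Several of the genes are not astrocyte-only: microglia also make Apoe and Cst3, choroid plexus makes Clu, vascular cells make Id3 and Mfge8, and neurons make Id2.

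The whole-series facts that bear on these genes were as follows. Median intensity over all probesets was 22.6 to 23.1 in the fluoxetine arrays and 23.0 to 23.3 in the control arrays, and the number of arrays limits the precision. All 14 neuron markers reached the minimum for testing, and their summed intensity was 126638 to 127541 in fluoxetine and 125821 to 127214 in control arrays. The 3'/5' intensity ratio of the beta-actin control probesets, a sign of RNA quality, was 2.61 and 2.74 in fluoxetine pools and 2.58 and 2.69 in control pools. The spike-in transcripts, added to each sample in a known amount, had 18 probesets. Each read higher in the fluoxetine arrays with no overlap, by a median log2 of 0.36, against -0.04 over all tested probesets. A batch that followed the groups and the treatment cannot be told apart here. The choroid plexus, a secretory tissue beside the hippocampus, was unevenly included: the intensity of its main product Ttr was 51101 and 4429 in fluoxetine pools 1 and 2, against 37856 and 2002 in control pools 1 and 2.

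Among the 34 tested genes, a small number differed between the groups and most of the core uptake and metabolic machinery did not pass the test. The water channel Aqp4 and the transcription regulator Id3 rose in fluoxetine pools and the secreted phagocytosis adapter Mfge8 fell. The glutamate transporter Slc1a2 rose at 1 probeset that was not its brightest. The test was limma's moderated comparison of log2 intensity over all 16938 tested probesets, with Benjamini-Hochberg adjustment and a threshold of 0.05, and a gene or probeset under it is referred to as a call. Each gene is represented by its brightest tested probeset unless another is named. At that probeset 2 of 34 genes passed as higher, against 1.31% of all 9030 tested genes, and 1 as lower, against 0.554%. With any tested probeset counted, 4 genes passed as higher, against 1.54% of genes, and 1 as lower, against 0.786%. Of those 4, 1, the urea transporter Slc14a1, counts only through a dimmer probeset that reached the minimum in the fluoxetine arrays alone, and its brightest probeset did not pass. Among the 62 tested probesets 6 passed as higher, against 1.03% of all tested probesets, and 1 as lower, against 0.685%. With 100 required in all 4 arrays that Slc14a1 probeset is not tested, and 5 probesets passed as higher. These shares are printed for scale only, since the genes were chosen with earlier results of these arrays known.

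At the brightest probeset 22 of the 34 genes had a log2 difference above 0 and 12 below. The median was 0.11, against -0.03 over all tested genes, and the range ran from -0.67 for Mfge8 to 1.07 for Aqp4. The 2 groups of pools did not overlap for 18 genes that were higher and 10 that were lower in fluoxetine. Over all tested genes those shares were 23.6% and 32.7%. Only Aqp4 and Slc14a1 reached the submitters' rule of a difference of at least 2-fold, both upward. Of all tested genes 0.797% did so upward and 0.133% downward. At an unadjusted p under 0.05, 11 of the 34 genes were higher and 3 lower, against 9.37% and 12.7% of all tested genes. Every call on these genes by limma needs all 4 arrays. With any 1 array left out a group holds 1 pool, and a call lost there cannot be laid to the array. With no intensity minimum 0 probesets of the whole table passed the adjusted test, although 5396 had an unadjusted p under 0.05.

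**Figure D1:**
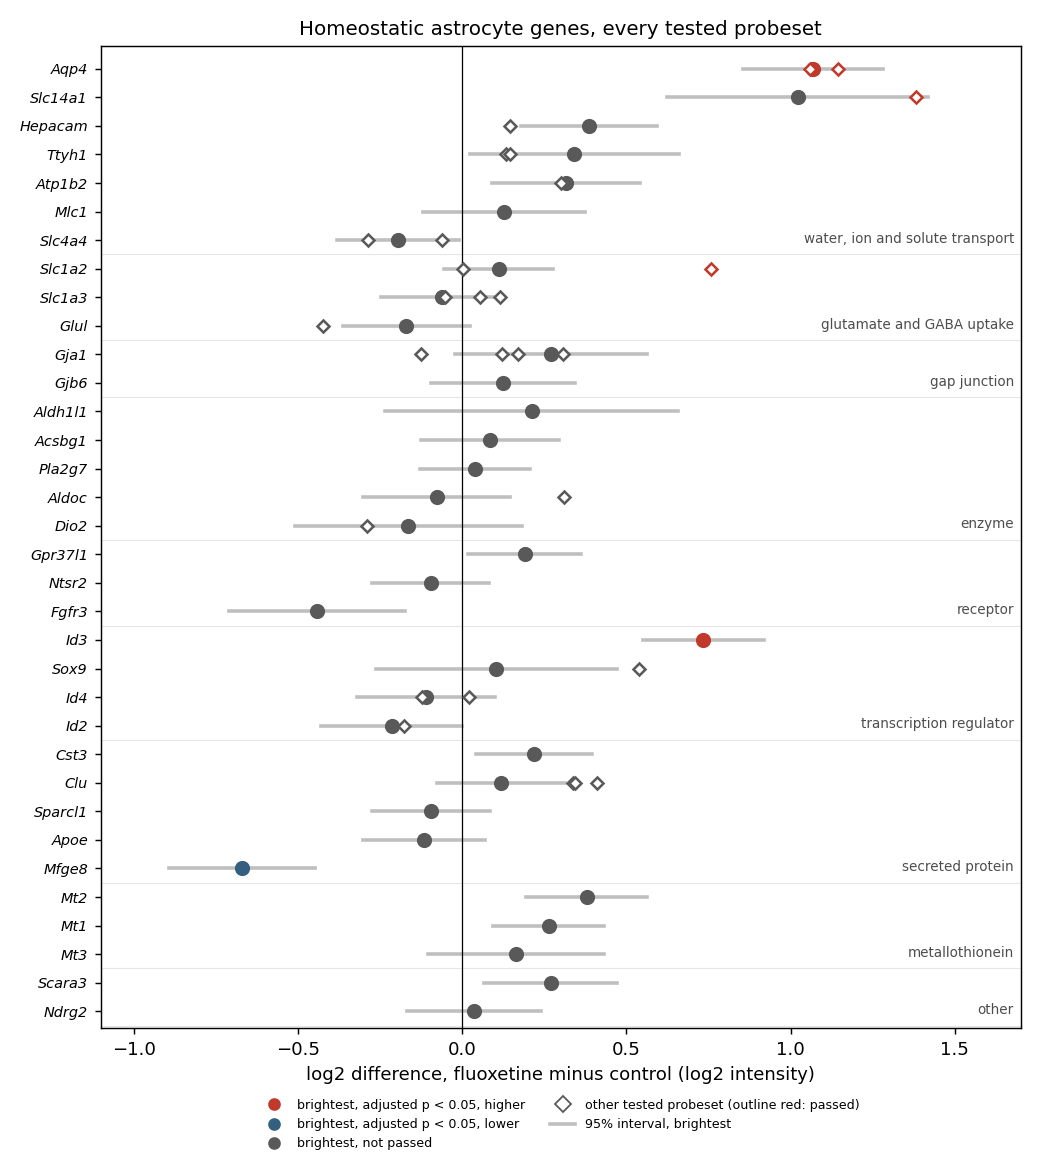
Log2 difference in intensity, fluoxetine minus control (x axis), for each of 34 homeostatic astrocyte genes (rows, grouped by role). Filled circles are the brightest tested probeset with its 95% interval from limma (n = 2 pools per group), open diamonds the other tested probesets, and red or blue marks an adjusted p under 0.05. Aqp4 lies at 1.07 with all 3 probesets close together, while the red diamond of Slc1a2 stands apart from its other 2 probesets, and that of Slc14a1 belongs to a probeset tested through the fluoxetine arrays alone.

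The water, ion and solute transport genes held the largest differences. Aqp4 encodes the main water channel of astrocyte endfeet. At its brightest probeset its intensity was 6458 and 5919.7 in the fluoxetine pools, against 3050.2 and 2852 in the control pools. Both treated pools were about as far above the controls as each other, and the pools of a group differed little. The log2 difference was 1.07 ± 0.08 (SE, n = 2 pools per group, adjusted p = 0.0262 by limma). The second probeset read 2670.4 and 2072 in fluoxetine and 1126 and 1133 in control pools (log2 1.06 ± 0.13, adjusted p = 0.0461 by limma). It did not pass where 1 array at 100 was enough for testing. The third, much dimmer, read 243 and 216 in fluoxetine and 103 and 104 in control pools (log2 1.15 ± 0.08, adjusted p = 0.0262 by limma). All 3 probesets of the gene therefore gave a similar difference at very different brightness. Without 1 array the log2 difference at the brightest stayed between 1.01 and 1.13, while its adjusted p by limma was 0.127 to 0.162.

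Slc14a1 encodes the urea transporter UT-B. Its brightest probeset was at 379.8 and 321 in fluoxetine pools and 195 and 152 in control pools, which missed the threshold (log2 1.02 ± 0.15, adjusted p = 0.0597 by limma). Its other probeset read 199 and 165 in fluoxetine pools, against 59.9 and 80.9 in control pools, at least 1.81-fold higher against the minimum of 100. This probeset reached the minimum in the fluoxetine arrays alone, so it had to differ to be tested, and its adjusted p of 0.0463 by limma is given as a description only. The groups were separate at both probesets. At the brightest probeset 5 alternative settings brought the gene past the threshold: median centring, quantile normalization, a pseudocount of 32, trended and robust variances, and the mean over its probesets, with an adjusted p by limma of 0.0199 to 0.0483.

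Of the other 5 genes of this role none passed, and 4 were higher in both fluoxetine pools. Hepacam, an adhesion protein that holds Mlc1 at cell junctions, read 277 and 256 in fluoxetine and 210.3 and 198 in control pools (log2 0.39 ± 0.08, adjusted p = 0.0907 by limma). Mlc1 itself, whose loss causes a leukodystrophy with brain swelling in humans, was at 1353 and 1164 in fluoxetine and 1151 and 1147 in control pools (log2 0.13 ± 0.09, adjusted p = 0.474 by limma). A second Hepacam probeset, about as bright, read 238 and 245 in fluoxetine and 219 and 217 in control pools (log2 0.15 ± 0.07, adjusted p = 0.269 by limma), close to the difference of Mlc1. Ttyh1, a membrane protein of the tweety family, was at 3086 and 3837 in fluoxetine pools, against 2782 and 2651 in control pools (log2 0.34 ± 0.12, adjusted p = 0.202 by limma). Atp1b2, the glial beta subunit of the sodium pump, was at 2522 and 2385 in fluoxetine pools, against 1864 and 2084 in control pools (log2 0.32 ± 0.09, adjusted p = 0.137 by limma). Their other tested probesets, 1 for Atp1b2 and 2 for Ttyh1, were on the same side of 0.

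Slc4a4, the sodium bicarbonate cotransporter, was the exception in this role. All 3 of its tested probesets were below 0 without passing, the brightest at 2072 and 2219 in fluoxetine and 2473 and 2438 in control pools (log2 -0.20 ± 0.07, adjusted p = 0.209 by limma). A further probeset of the gene was left untested because only 1 array reached 100. It read 51.3 and 50.6 in fluoxetine pools and 102 and 89.6 in control pools, and no fold is given because both groups' means lie under the minimum. Where 1 array at 100 was enough for testing it passed as lower. It was then tested through control pool 1 alone, so that call is a description only.

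**Figure D2:**
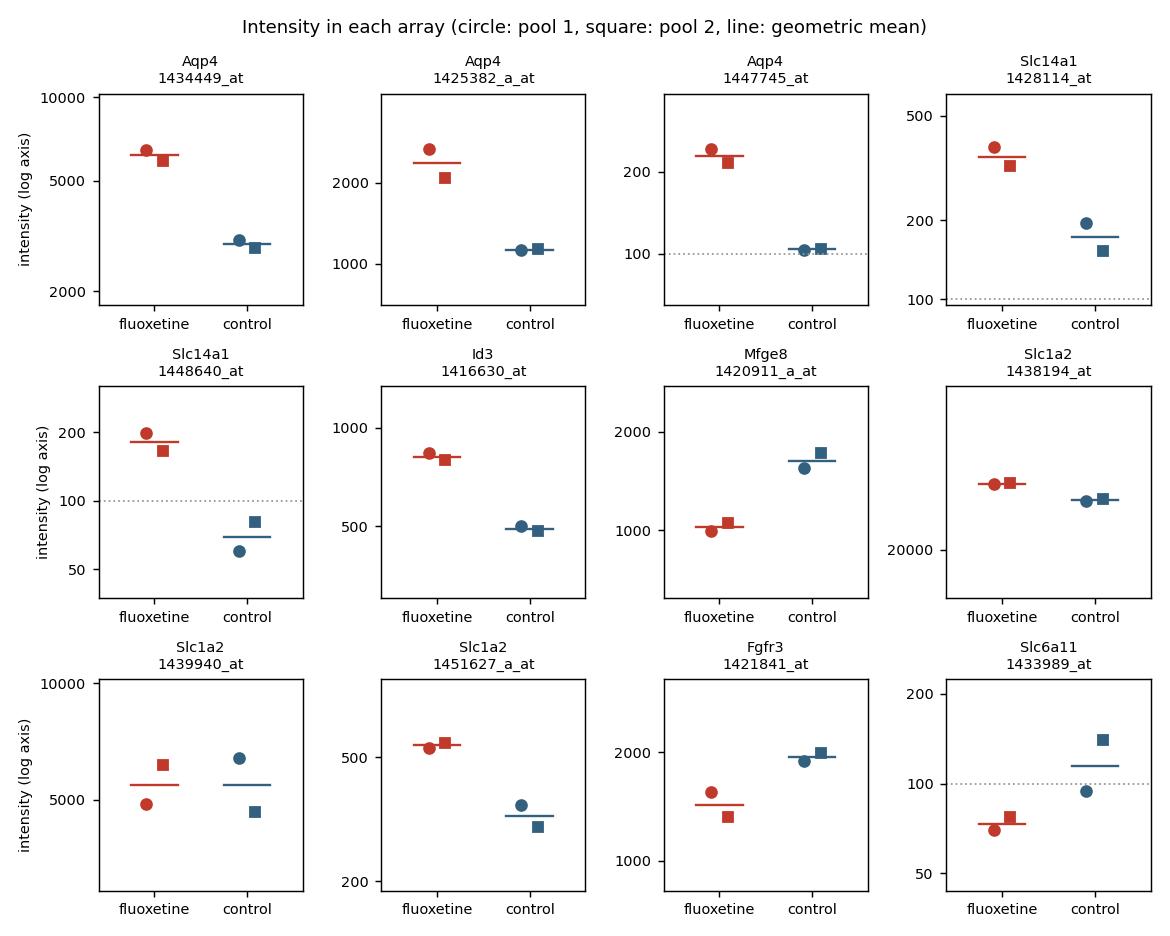
Intensity (y axis, log scale) in each of the 4 arrays for 12 probesets of 7 genes, fluoxetine in red on the left and control in blue on the right. Circles are pool 1, squares pool 2, short lines geometric means, and the dotted line the minimum of 100. The 3 Aqp4 panels show the same gap at different brightness, while of the 3 Slc1a2 panels the dimmest has the widest gap between groups.

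None of the 3 tested glutamate uptake and recycling genes passed at the brightest probeset, and 0 had an unadjusted p under 0.05 there. Dimmer probesets of Slc1a2 and Glul gave larger differences. Slc1a2, the main glutamate transporter of the forebrain, was at 27448 and 27595 in fluoxetine pools and at 25338 and 25616 in control pools (log2 0.11 ± 0.06, adjusted p = 0.370 by limma). The pools of a group were nearly identical here, and the 95% interval of the log2 difference ran from -0.06 to 0.28. A second probeset overlapped fully, with 4863 and 6137 in fluoxetine and 6402 and 4651 in control pools. The third rose, with 536 and 557 in fluoxetine pools, against 351 and 298 in control pools (log2 0.76 ± 0.10, adjusted p = 0.0494 by limma). Probesets of a gene can read different transcript ends or variants, and which one this probeset reads is not given in the sources used here. Without 1 array its log2 difference was 0.64 to 0.87 and its adjusted p by limma 0.146 to 0.196.

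Slc1a3, the other astrocyte glutamate transporter, had 4 tested probesets between log2 -0.06 and 0.11, on both sides of 0, and none passed. Its brightest was at 4289 and 4581 in fluoxetine pools and 4604 and 4650.5 in control pools, and the 95% interval of its log2 difference was -0.25 to 0.12. Glul, glutamine synthetase, was below 0 at both of its probesets, with 8048 and 8458 in fluoxetine and 9593 and 8976 in control pools at the brightest (log2 -0.17 ± 0.07, adjusted p = 0.268 by limma). The dimmer Glul probeset was at 998 and 846 in fluoxetine pools, against 1248 and 1214 in control pools (log2 -0.42 ± 0.10, adjusted p = 0.114 by limma). The groups did not overlap at either, but neither passed. Slc6a11, the GABA transporter GAT-3, had no tested probeset: its brighter one read 69.9 and 77.2 in fluoxetine pools and 94.2 and 139.7 in control pools, and the other lay near 4 in every array. By the group means, the minimum of 100 makes the brighter one at least 1.15-fold lower in fluoxetine pools, with no test. That fold rests on control pool 2 alone, since control pool 1 was under 100 too.

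Neither connexin passed, and 0 of the 2 had an unadjusted p under 0.05. Gja1, connexin 43, was above 0 at 4 of its 5 tested probesets, the brightest at 15869.9 and 19200.0 in fluoxetine pools and 14091 and 14833 in control pools (log2 0.27 ± 0.11, adjusted p = 0.246 by limma). The fifth and dimmest lay slightly on the other side, at log2 -0.13 ± 0.07. Gjb6, connexin 30, had fluoxetine pools at 1061 and 1076 and control pools at 924 and 1040.0 (log2 0.12 ± 0.08, adjusted p = 0.437 by limma). The fluoxetine pools were higher for both genes, but in each the difference was no larger than the gap between the pools of one group.

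The 5 enzymes gave no call by limma, and at the brightest probeset 0 had an unadjusted p under 0.05. Aldh1l1, a folate enzyme widely used to mark astrocytes, was at 609 and 434 in fluoxetine pools and 440.2 and 447 in control pools, so that only fluoxetine pool 1 stood out. Aldoc, an aldolase of glycolysis, was at 14907 and 16188 in fluoxetine and 15645 and 17173 in control pools, and its groups overlapped. The dimmer Aldoc probeset went the other way without passing (log2 0.31 ± 0.09, adjusted p = 0.147 by limma). Acsbg1, a fatty acyl-CoA synthetase, and Pla2g7, a phospholipase that degrades platelet-activating factor, lay at log2 0.09 ± 0.08 and 0.04 ± 0.06. Dio2, the deiodinase that activates thyroid hormone in astrocytes, lay at -0.16 ± 0.13, with fluoxetine pool 1 at 288 and the other 3 arrays between 349 and 378. Its dimmer probeset read 140.3 and 155 in fluoxetine pools, against 186 and 175 in control pools, separate groups that did not pass (log2 -0.29 ± 0.08, adjusted p = 0.15 by limma). Groups overlapped for Aldh1l1, Aldoc, Acsbg1 and Dio2 at the brightest probeset, and for Pla2g7 they did not, by a small gap.

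Of the 3 receptors none passed either. At an unadjusted p under 0.05, 1 was higher and 1 lower, against 9.37% and 12.7% of all tested genes. Fgfr3, a fibroblast growth factor receptor of astrocytes and their precursors, had the second most negative difference of the 34 genes, with 1555 and 1318 in fluoxetine pools, against 1896 and 1994 in control pools (log2 -0.44 ± 0.10, adjusted p = 0.110 by limma). Gpr37l1, an orphan-type receptor linked to prosaposin, was at 2136 and 2215 in fluoxetine and 1894 and 1918 in control pools (log2 0.19 ± 0.07). Ntsr2, a neurotensin receptor, was at 1414 and 1491 in fluoxetine and 1556 and 1546 in control pools (log2 -0.10 ± 0.07). In each of the 3 the groups were separate, with Gpr37l1 on the higher side and the other 2 on the lower. Separate groups were common, at 23.6% of all tested genes on the higher side and 32.7% on the lower.

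Of the 4 transcription regulators, Id3 passed the test. Id proteins lack a DNA-binding region and act by binding bHLH factors, and they are classical targets of bone morphogenetic protein (BMP) signalling. Id3 was at 838 and 795 in fluoxetine pools and 501 and 481 in control pools. The groups lay far apart compared with the spread of either, and the log2 difference was 0.73 ± 0.07 (adjusted p = 0.0352 by limma), or 1.66-fold. Its value without 1 array was 0.70 to 0.77 on the log2 scale, with an adjusted p by limma of 0.134 to 0.180. Id2 and Id4 lay on the other side of 0. Id2 was at 5689 and 5791 in fluoxetine pools, against 6303 and 7036 in control pools (log2 -0.21 ± 0.08, adjusted p = 0.222 by limma). Id4 was at 2507 and 2753 in fluoxetine and 2767 and 2908 in control pools (log2 -0.11 ± 0.08, adjusted p = 0.465 by limma). Sox9, a factor that sets astrocyte identity, had overlapping groups at its brightest probeset (log2 0.10 ± 0.14), and at the other read 232 and 189 in fluoxetine and 152 and 136 in control pools (log2 0.54 ± 0.12, adjusted p = 0.109 by limma).

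The promoter of Id3 is shown because Id3 was the regulator that passed the test. It covers chr4:136143572-136143871 on the + strand of GRCm38.p6, from RefSeq, 250 bases before to 50 after the annotated start. Capitals mark GTCTG on either strand, a short motif that Smad factors can bind.
Id3: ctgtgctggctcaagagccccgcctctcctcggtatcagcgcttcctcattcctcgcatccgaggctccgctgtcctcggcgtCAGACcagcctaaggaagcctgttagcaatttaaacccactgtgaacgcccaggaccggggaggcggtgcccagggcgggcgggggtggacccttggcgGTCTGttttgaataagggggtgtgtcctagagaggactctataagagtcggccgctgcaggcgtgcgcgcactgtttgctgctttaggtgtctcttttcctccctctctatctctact
It held 2 matches, and the promoters of Id2 and Id4 held 0 each. Other sequences that Smad factors bind were not searched for. Among all 32851 RefSeq promoters of this length 49.6% held at least 1, so the motif is common, and a match is not evidence of binding.

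The BMP and Id pathway list, taken beyond the 35 genes, had 13 tested of 24 genes. Acvr1, a type I receptor for BMPs, rose, with 1534 and 1653 in fluoxetine pools and 983 and 918 in control pools (log2 0.74 ± 0.08, adjusted p = 0.0380 by limma). It was the only 1 of the 13 to pass, where 1.31% of all tested genes passed as higher. Id1, the closest relative of Id3, was at 175 and 159 in fluoxetine pools, against 124 and 111 in control pools (log2 0.51 ± 0.09, adjusted p = 0.0755 by limma). The next largest differences were those of the inhibitory Smad7 (log2 0.29 ± 0.10) and the BMP antagonist Chrd (-0.26 ± 0.08), neither of which passed. The list's median was 0.01, and the ligands Bmp2, Bmp4, Bmp6 and Bmp7 were too dim to be tested. Id3 is also made by vascular cells, and the 10 tested endothelial and mural markers summed to 9499 and 9509 in fluoxetine arrays and to 7852 and 8233 in control arrays. Of the 10, 8 were above 0, against 3931 of all 9030 tested genes, and 2 were below. The lowest was at log2 -0.27, and 1 was lower with separate groups, as were 32.7% of all tested genes. Rgs5 and Abcc9, both of mural cells, passed as higher, to be read against the same 1.31% of all tested genes. They rose by log2 0.59 ± 0.06 and 0.52 ± 0.07, with Abcc9 near the minimum in control pools (102 and 95.5). The markers Cldn5 (0.66 ± 0.11), Esam (0.48 ± 0.11) and Tek (0.39 ± 0.12) did not pass. Their part in the Id3 difference was not tested.

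The secreted proteins split in direction. Mfge8, a milk-fat-globule protein that bridges dying cells to phagocytes, fell to 993 and 1055 in fluoxetine pools, against 1546 and 1717 in control pools. The log2 difference was -0.67 ± 0.08 (adjusted p = 0.0460 by limma), which leaves 62.8% of the control level. Its adjusted p by limma was 0.0567 where 1 array at 100 was enough for testing, and 0.145 to 0.199 with 1 array left out, at a log2 difference of -0.75 to -0.60. Apoe, the main lipid carrier of brain lipoproteins, was at 15816 and 15031 in fluoxetine and 16322 and 17076 in control pools (log2 -0.11 ± 0.07, adjusted p = 0.40 by limma). Sparcl1, a matrix protein that promotes synapse formation, was at 25926 and 26474 in fluoxetine and 27239.5 and 28735 in control pools (log2 -0.09 ± 0.07, adjusted p = 0.465 by limma). For both, the fluoxetine pools were lower by a small margin.

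Clu, clusterin, a chaperone carried on lipoproteins, and Cst3, the protease inhibitor cystatin C, were on the higher side. Clu was at 47473 and 44880.3 in fluoxetine and 41219.7 and 43863 in control pools at the brightest probeset (log2 0.12 ± 0.07, adjusted p = 0.407 by limma). Its 3 dimmer probesets gave log2 0.34 to 0.41 with adjusted p of 0.0738 to 0.0916 by limma, so the brightest gave the smallest difference of the 4. Cst3 was at 32502 and 33517 in fluoxetine pools and 27789 and 28898 in control pools (log2 0.22 ± 0.07, adjusted p = 0.164 by limma). Microglia make Cst3 too, and the summed intensity of the 11 tested microglia markers was 12748 and 13049 in fluoxetine arrays, against 8130.0 and 8458 in control arrays. All 11 were above 0, against 3931 of all 9030 tested genes. C1qb, Cd53, Tyrobp, C1qa and Ctss rose, C1qb by log2 1.10 ± 0.08 (adjusted p = 0.0252 by limma), where 1.31% of all tested genes passed as higher. Ly86 (1.13 ± 0.19), Csf1r (0.55 ± 0.08) and Laptm5 (0.47 ± 0.08) did not pass. Trem2 was under 100 in all arrays, and their part in the Cst3 value was not tested.

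The metallothioneins bind zinc and copper through cysteines, Mt1 and Mt2 being induced by metals and glucocorticoids and Mt3 being the constitutive brain form. Mt2 was at 4575 and 4829.6 in fluoxetine pools and 3553 and 3678 in control pools (log2 0.38 ± 0.07, adjusted p = 0.0800 by limma). Mt1 was at 8811 and 9065 in fluoxetine pools, against 7440.0 and 7445 in control pools (log2 0.26 ± 0.06, adjusted p = 0.117 by limma). Neither passed, though each had a gap wider than the spread of its pools, and both passed with trended and robust variances (adjusted p = 0.0342 and 0.0471 by limma). Mt3 was at 2579.8 and 2561 in fluoxetine pools and 2499.8 and 2105 in control pools (log2 0.16 ± 0.10, adjusted p = 0.403 by limma).

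The promoters of the 3 metallothionein genes are shown because the genes lie close together on the chromosome and were all on the higher side. All are on the + strand of GRCm38.p6 from RefSeq, Mt1 at chr8:94178839-94179138, Mt2 at chr8:94172368-94172667 and Mt3 at chr8:94152357-94152656. Capitals mark the core of the metal response element, TGCACNC or TGCGCNC on either strand, to which the zinc-sensing factor Mtf1 binds.
Mt1: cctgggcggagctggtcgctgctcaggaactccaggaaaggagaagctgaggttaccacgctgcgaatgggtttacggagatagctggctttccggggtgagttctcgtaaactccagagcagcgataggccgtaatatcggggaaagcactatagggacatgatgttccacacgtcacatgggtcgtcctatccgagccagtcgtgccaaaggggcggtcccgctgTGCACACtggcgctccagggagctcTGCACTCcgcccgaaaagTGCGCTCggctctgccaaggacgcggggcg
Mt2: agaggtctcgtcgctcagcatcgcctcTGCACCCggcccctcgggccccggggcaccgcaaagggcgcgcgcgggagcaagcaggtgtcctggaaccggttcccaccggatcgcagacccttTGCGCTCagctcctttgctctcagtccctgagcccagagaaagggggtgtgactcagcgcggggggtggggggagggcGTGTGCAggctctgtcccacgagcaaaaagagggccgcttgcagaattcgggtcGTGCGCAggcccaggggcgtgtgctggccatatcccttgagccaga
Mt3: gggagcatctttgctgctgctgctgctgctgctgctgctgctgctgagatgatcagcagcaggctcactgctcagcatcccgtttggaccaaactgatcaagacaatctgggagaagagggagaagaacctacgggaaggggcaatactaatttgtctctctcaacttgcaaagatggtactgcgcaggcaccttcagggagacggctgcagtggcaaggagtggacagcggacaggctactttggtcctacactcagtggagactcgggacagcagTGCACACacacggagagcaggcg
Mt1 held 3 matches, Mt2 held 4 and Mt3 held 1. Of all RefSeq promoters of this length 25.7% held at least 1 and 1.97% at least 3. The zinc and metal response list, with Mtf1 and the zinc exporter Slc30a1 in it, had 12 tested of 18 genes and 0 calls by limma, with a median of 0.05. At an unadjusted p under 0.05 it had 1 gene higher and 0 lower, against 9.37% and 12.7% of all tested genes. Its largest differences, none of which passed, were log2 0.28 ± 0.11 for the zinc importer Slc39a1, 0.23 ± 0.11 for Mtf1 and 0.14 ± 0.07 for Slc30a1.

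The remaining genes were Ndrg2 and Scara3. Ndrg2, a cytoplasmic protein used as an astrocyte marker, had overlapping groups (5470.2 and 5328 in fluoxetine, 5021 and 5522 in control pools). Scara3, a scavenger receptor induced by oxidative stress, was at 308 and 307 in fluoxetine and 267 and 243 in control pools (log2 0.27 ± 0.08, adjusted p = 0.148 by limma).

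Agreement between pools differed from gene to gene. At the brightest probeset, pools of one group differed by a median absolute log2 of 0.08 in fluoxetine and 0.07 in control. The widest gaps were 0.49 for Aldh1l1 in fluoxetine and 0.35 for Slc14a1 in control pools. Compared within a pool number, 20 genes were higher and 11 lower in both, and 3 changed sign (Aldh1l1, Dio2 and Ndrg2). In the pool 2 arrays, which had the lower Ttr intensities, the log2 difference was 1.05 for Aqp4, 0.72 for Id3, 1.08 for Slc14a1 and -0.70 for Mfge8. In the pool 1 arrays it was 1.08 for Aqp4, 0.74 for Id3, 0.97 for Slc14a1 and -0.64 for Mfge8. Ttr was higher in the fluoxetine array within both pool numbers, and its part in these values was not tested. The median over the 34 genes was 0.12 in pool 1 and 0.06 in pool 2.

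**Figure D3:**
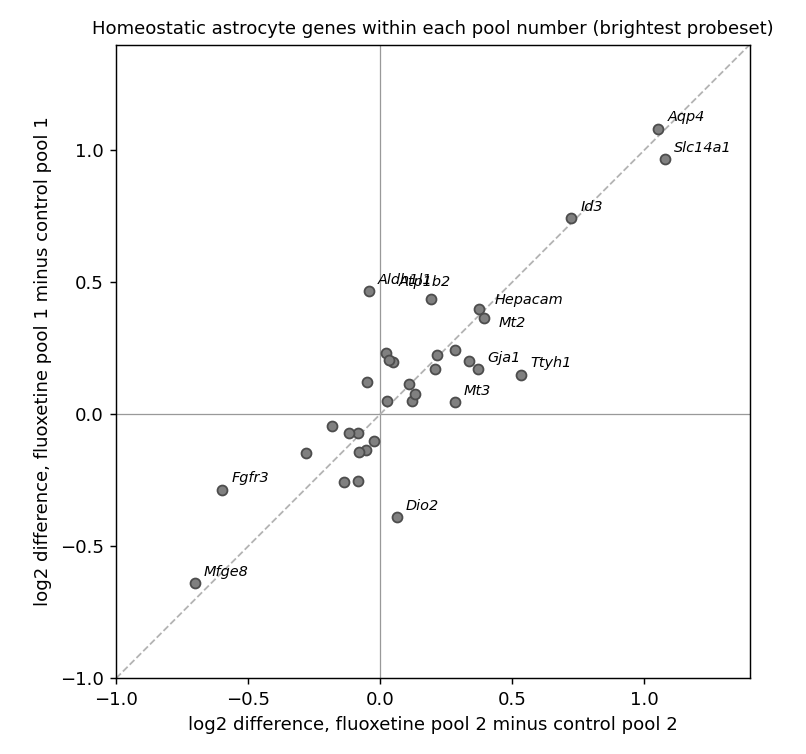
Log2 difference at the brightest probeset between pool 2 arrays (x axis) and between pool 1 arrays (y axis), fluoxetine minus control, for 34 homeostatic astrocyte genes (points). The dashed line marks equal values. Aqp4, Slc14a1, Id3 and Mfge8 lie near it at both ends, while Aldh1l1, Dio2 and Ttyh1 lie off it.

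Other homeostatic astrocyte genes, a list of 65 outside the 35, gave a similarly mixed picture. Of 57 tested, 3 rose and 1 fell, against 1.31% and 0.554% of all tested genes, and the median was 0.04. Kcnj10, the potassium channel Kir4.1 of astrocyte endfeet, was at 1492 and 1586 in fluoxetine pools, against 1004 and 1028 in control pools (log2 0.60 ± 0.07, adjusted p = 0.0429 by limma). Ppp1r3c, a glycogen-targeting phosphatase subunit, rose by log2 0.71 ± 0.07 and Mgst1, a microsomal glutathione transferase, by 0.67 ± 0.06. Mertk, a receptor by which astrocytes and microglia engulf debris, fell to 406 and 413 in fluoxetine pools, against 633 and 589 in control pools (log2 -0.58 ± 0.07, adjusted p = 0.0460 by limma). The 3 others with the largest differences did not pass: the cytochrome gene Cyp4f15 (at least 1.16-fold lower, both fluoxetine pools under 100), the Notch target Hes5 (log2 -0.71 ± 0.20) and the endothelin receptor Ednrb (0.49 ± 0.09).

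Of the 27 genes of the reactive astrocyte list 7 were tested, all were higher in both fluoxetine pools and 5 rose, with a median of 1.78. Over all tested genes 23.6% were higher without overlap and 1.31% passed as higher. Gfap, the astrocyte filament protein, was at 3222 and 2606 in fluoxetine pools and 461 and 385 in control pools. Vim, S100a6, Lgals1 and Serpina3n also rose, and S1pr3 (log2 1.94 ± 0.33) and Stat3 (0.63 ± 0.15) did not pass. The other 19 annotated genes of that list had no probeset that reached the minimum in enough arrays to be tested. Differences in level between that list and the 35 genes were not tested.

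Lists around the single members held few calls. None of the tested genes of 5 lists passed by limma: 10 for glutamate and glutamine handling, 8 for the endfoot and dystroglycan complex, 11 for lipoprotein and cholesterol export, 5 for thyroid hormone handling and 10 for FGF signalling. Their medians lay between -0.09 and 0.09. At an unadjusted p under 0.05 these lists had, in that order, 2, 1, 0, 0 and 2 genes higher and 1, 1, 1, 1 and 2 lower, to be read against the 9.37% and 12.7% of all tested genes. In the first of these, the vesicular transporters Slc17a6 and Slc17a7 and the amino acid exchanger Slc1a4 differed most (log2 -0.48 ± 0.13, 0.25 ± 0.08 and 0.25 ± 0.06). In the endfoot list, the caveolin gene Cav1 was higher in both fluoxetine pools (log2 1.18 ± 0.21, adjusted p = 0.0754 by limma), and the chloride channel Clcn2 and the dystrobrevin Dtna were at -0.36 ± 0.14 and -0.20 ± 0.07. In the lipoprotein list, the lipid exporter Abca1, which loads Apoe, was at 0.20 ± 0.08, the receptor Lrp8 at 0.20 ± 0.09 and the lipogenic factor Srebf1 at -0.35 ± 0.12. The thyroid hormone receptor Thra was at -0.28 ± 0.06, the hormone-binding Crym at -0.18 ± 0.08 and the hormone target Klf9 at 0.13 ± 0.07. In the FGF list, the feedback inhibitor Spry2 was at 0.54 ± 0.23, Fgfr1 at 0.42 ± 0.10 and the target Etv5 at -0.38 ± 0.08.

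Markers of other cells of the tissue gave the following counts. Oligodendrocyte markers had 11 tested genes and 0 calls by limma. At an unadjusted p under 0.05, 9.37% of all tested genes were higher and 12.7% lower, and of these markers 0 and 2. Their largest differences were those of Aspa (log2 -0.32 ± 0.07), Ugt8a (0.29 ± 0.11) and Pdgfra (-0.17 ± 0.06). Of the 14 neuron markers 7 were above 0 and 7 below, with a median log2 of 0.006 and a lowest value of -0.22. Groups did not overlap for 5 that were higher and 3 that were lower, against 23.6% and 32.7% of all tested genes. The neurofilament gene Nefm rose (log2 0.55 ± 0.07), and Nefh (0.33 ± 0.09), Nefl (0.32 ± 0.09) and Gad2 (0.26 ± 0.11) did not pass. Of the 6 tested meningeal and fibroblast genes the collagen gene Col3a1 was at 239 and 223 in fluoxetine pools, against 59.0 and 56.4 in control pools (at least 2.31-fold higher, adjusted p = 0.00934 by limma). It reached the minimum in the fluoxetine arrays alone and so had to differ to be tested, while Ptgds (log2 -0.91 ± 0.32), Col1a2 (0.83 ± 0.14) and Lum (0.32 ± 0.17) did not pass. No blood marker reached the minimum for testing. Of 5 tested choroid plexus markers 0 passed by limma, with 0 at an unadjusted p under 0.05 either way, and the SE of the log2 difference was above 0.3 for Ecrg4, Ttr and Igf2, the 3 with the largest differences.

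**Figure D4:**
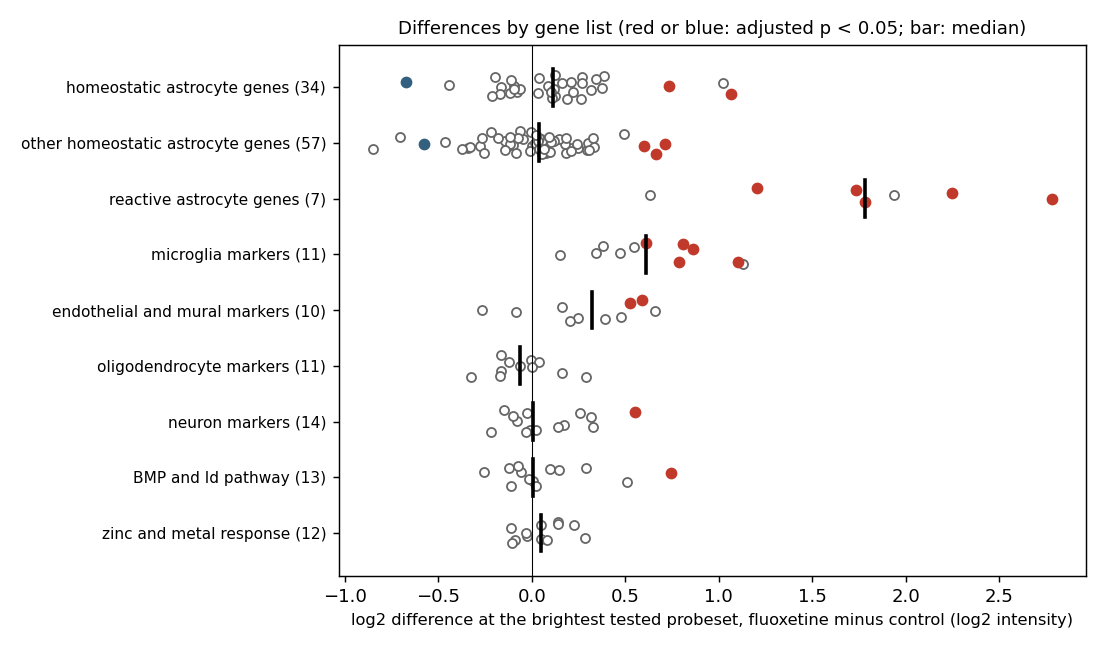
Log2 difference at the brightest tested probeset, fluoxetine minus control (x axis), for the 34 homeostatic astrocyte genes and 8 other gene lists (rows, number of tested genes in brackets). Filled points have an adjusted p under 0.05 by limma, red higher and blue lower, and bars are medians. The 34 genes have a median of 0.11, against 1.78 for the 7 reactive astrocyte genes and 0.61 for the 11 microglia markers.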

How the data were processed

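Values are intensities on a linear scale, 1 per probeset and array, which the authors normalized by the GCRMA algorithm, run in ArrayAssist (per the labels and the submitters' processing notes). No source used here gives a version. GCRMA includes a background correction that draws dim probesets towards a floor, so differences between small intensities can be understated. The deposited intensities were taken to log2 with no pseudocount. After 64 control probesets were removed, 16938 probesets reached 100 in at least 2 arrays and were fitted together by lmFit and eBayes of limma 3.58.1 under R 4.3.3 (2 fluoxetine against 2 control pools, no covariate, two-sided). Errors are standard errors of the log2 difference, and intervals are 95%. An exact permutation test of these groups cannot go below 0.333, so limma's moderated test is used. The procedure was run on simulated data with independent normal errors, drawn from the variances that limma fitted. Those data held no batch that followed the groups, so the run gives no check on one. Genes were named from the platform annotation, where 34958 probesets had 1 symbol and 932 several, and 34754 of the former kind were found in the reference table by gene number. Among the 35 genes 28 had a promoter entry.

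Groups and pool numbers come from the sample titles. The pools are described as separate biological samples. Members and lists were chosen with earlier results of these data known. All members are named, with values in every array for those that passed and the 14 with the largest differences. Genes of other lists were taken from those that passed and the 3 others with the largest difference in each. Alternatives were other intensity minimums, a pseudocount of 32, a floor of 100, centring on the median, quantile normalization, each array left out, pool number as a block, trended and robust variances, no _s_at or _x_at probesets, the mean over a gene's probesets and, chosen after seeing the data, each pool number alone.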

Additional observations from a re-analysis of the deposited data

How the results depend on the processing

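Each call needed all 4 arrays and some intensity minimum. Leaving out any 1 array leaves 1 pool in a group and 1 residual degree of freedom, so a call lost there cannot be laid to the array. No intensity minimum gave 0 calls by limma, higher or lower, among the genes, among their probesets and in the whole table. There 5396 probesets had an unadjusted p under 0.05. With 100 required in all 4 arrays 2 genes passed as higher and 1 as lower, as in the main fit. The pool numbers are shared only as labels, and deviations of same-numbered pools correlated at 0.14 (Pearson) over 16938 probesets. With the pool number as a replicate block 0 of the genes and of their probesets passed in either direction, and 9 probesets of the table passed as higher and 0 as lower (3621 at an unadjusted p under 0.05). That fit leaves 1 residual degree of freedom. Without fluoxetine pool 1 the brightest Hepacam probeset was the other one, at log2 0.17. With 1 array at 100 enough for testing, 3 probesets of the genes passed as higher and 0 genes as lower, and 46 probesets of the table as lower. The calls of the dimmest Slc1a2, the second Aqp4 and the dimmer Slc14a1 probeset were lost there. Trended and robust variances gave 5 genes and 12 of their probesets higher, and 319 higher and 213 lower over the table. Median centring gave 283 higher over the table. The median over the 34 genes was 0.058 to 0.12 with 1 array left out and 0.056 in the pool 2 arrays alone. The number at least 2-fold higher was 1 with a pseudocount of 32 and in the pool 1 arrays alone, and 1 to 2 with 1 array left out.

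Direction changed for 6 genes that did not pass. With 1 array left out, the log2 difference ranged from -0.033 to 0.10 for Ndrg2 (lowest without control pool 1), from -0.046 to 0.25 for Sox9 (below 0 without control pool 2 and without fluoxetine pool 1), from -0.033 to 0.46 for Aldh1l1 (lowest without fluoxetine pool 1) and from -0.33 to 0.0057 for Dio2 (highest without fluoxetine pool 1). The mean over a gene's probesets put Slc1a3 at 0.014 and Aldoc at 0.12, as their dimmer probesets lay on the other side, and gave no value for counts of probesets. In all, 7 of 564 single-gene values changed direction, 46 lost a call, 7 gained one and 504 did neither. The causes were not tested except where named. The number of arrays limits what can be detected, and dim probesets, such as those of Slc6a11, are limited by the background.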
